A study of Rattus norvegicus with 18 samples.

Results

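T cell RNA of the third day after heart transplantation was compared with T cell RNA of the first day in rats. The comparison used 6 of the 18 arrays of the study, chosen by their labels alone: 3 T cell arrays of day 3 and 3 of day 1, 1 of each treatment, paired by treatment. The other arrays were 3 of T cells on day 7 and 9 of the grafted hearts. Hearts of Wistar Furth (WF; RT1.Au) rats were placed in the abdomen of ACI (RT1.Aa) recipients beside the animal's own heart, and all animals were adult males. In the cyclosporine plus peptide group, recipients got oral cyclosporine (10 mg/kg/day) from day 0 through day 2 and an allochimeric RT1.Aa peptide at 1 mg/kg through the portal vein at transplantation. The cyclosporine group got the same course without the peptide, a dose that the labels call too low for therapy, and the untreated group was transplanted with neither agent. Day 1 therefore lay inside the drug course and day 3 after its end in both treated groups. All 18 samples carry the strain label Wistar Furth, although the recipients were ACI. The organ from which T cells were taken, the way they were purified and whether animals were pooled are not described in the labels.

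T cells recognise foreign MHC molecules of a graft through the T cell receptor. A cell that is activated this way enters the cell cycle, copies its DNA, and divides, and its daughters become effector or memory cells. Cyclosporine inhibits calcineurin, the phosphatase that brings NFAT transcription factors into the nucleus, and so dampens interleukin 2 production. Genes of DNA replication are switched on largely by E2F factors through sites of the type TTTGGCGC, and genes of mitosis are timed by the DREAM and MuvB complexes through CHR elements of the type TTTGAA, often beside CCAAT boxes bound by NF-Y.

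The 9 T cell arrays had median intensities between 195 and 210, and the 3' to 5' ratio of the Gapdh control probe sets lay between 1.45 and 1.62. Values are the deposited linear intensities, and differences are day 3 minus day 1 of log2(intensity + 16), a scale that understates the change of dim genes. The T cell label was borne out by the receptor and identity genes. Over 18 genes their summed intensity was 97471 to 107771 on day 3 and 75188 to 105190 on day 1, against 2354 to 32122 in the 9 hearts. The 15 heart muscle genes summed to 905 to 1265 in T cells and to 153187 to 191957 in hearts. Genes of other blood cells were also read in every T cell array: 13 B cell genes summed to 20101 to 49089 and 17 erythroid genes to 11594 to 43854. The 18 macrophage and monocyte genes summed to 57582 to 103613 in T cells, within their range of 50993 to 117329 in hearts. In bulk RNA, fewer cells of a type and less RNA per cell cannot be told apart.

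The untreated day 1 array stood apart from the other T cell arrays. Its 12 neutrophil genes summed to 42202, against 2899 and 1505 in the other day 1 arrays and 1792 to 3742 on day 3. S100a9, a calcium-binding protein that neutrophils hold in bulk, read 1763 (cyclosporine plus peptide), 675 (cyclosporine) and 1241 (untreated) on day 3, and 1264, 515 and 17774 in the same order on day 1. Its partner S100a8 read 663 in the untreated array of day 3 and 12964 in that of day 1, and the receptor gene Csf3r read 189 and 2842. Mmp8, a neutrophil collagenase, read 174 on day 3 and 1949 on day 1 in untreated T cells. The same array was highest of the 9 in B cell, MHC class II and erythroid sums and lowest in the T cell sum. It was also highest of the 9 in the macrophage (103613), dendritic cell (6552) and platelet (5287) sums. The cyclosporine plus peptide array of day 1 had the lowest erythroid sum of the 9: Alas2, the first enzyme of haem synthesis in red cell precursors, read 5211 on day 3 and 387 on day 1. Results are therefore given with and without the untreated pair.

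**Figure D1:**
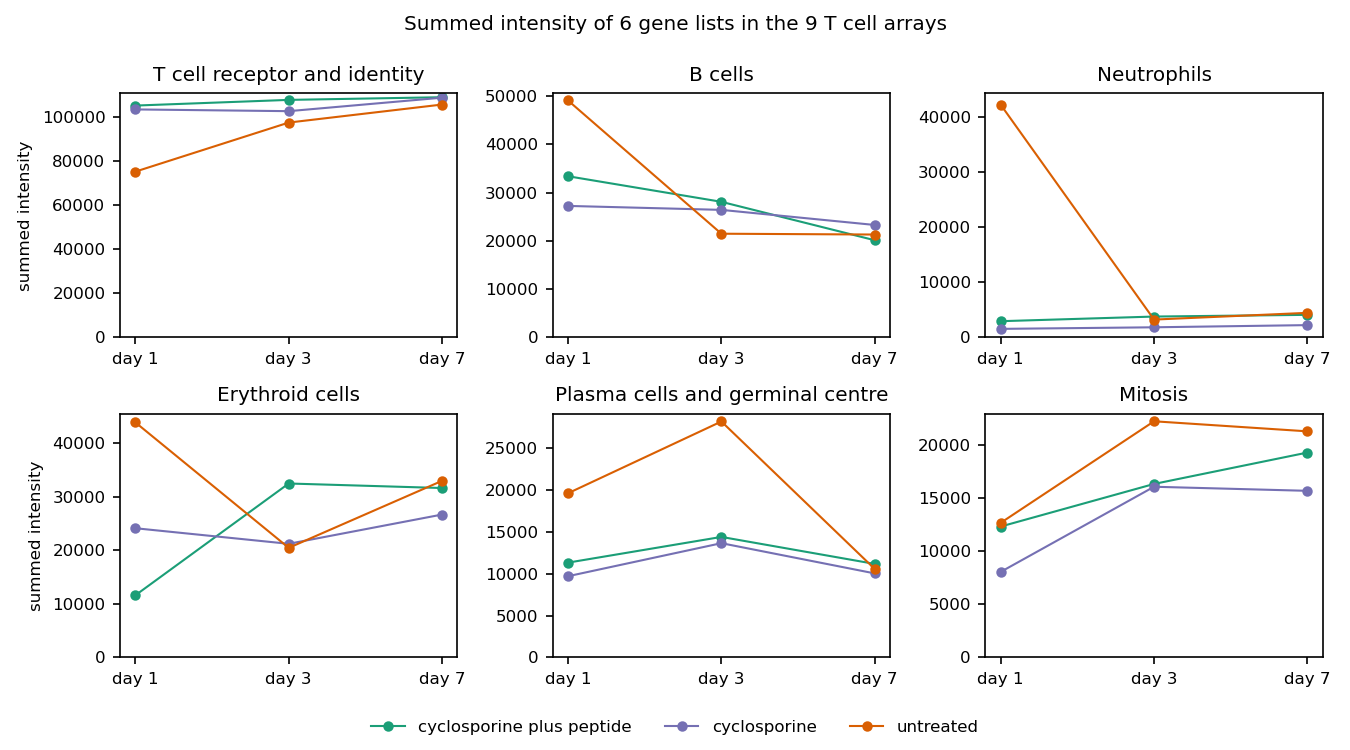
Summed intensity (y axis) of the genes of 6 lists in the 9 T cell arrays by day (x axis), with 1 line per treatment and 1 array per point. On day 1 the untreated array reads 42202 for neutrophil genes and 75188 for T cell genes, while mitosis genes are higher on day 3 than on day 1 in each treatment.

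No probe set passed the test between day 3 and day 1 in T cells. Of 19464 probe sets tested (10446 genes), limma with Benjamini-Hochberg adjustment called 0 higher (0%) and 0 lower (0%) at an adjusted p below 0.05, and the lowest adjusted p was 0.178, shared by 55 probe sets. At an unadjusted p below 0.05, limma counted 915 higher (4.70%) and 700 lower (3.60%), 1615 together, where 973 are expected by chance. All 3 day 3 arrays read above all 3 day 1 arrays for 1212 probe sets (6.23%) and below them for 954 (4.90%). Day 3 was above day 1 in each of the 3 treatments for 2887 probe sets (14.8%) and below it for 2193 (11.3%). The median difference over all probe sets tested was 0.014. Since no gene passed, the genes named below are described by their values, and "higher" and "lower" refer to those values.

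The treatments differed in how far their own pair moved. Differences over 1 were counted for 115 probe sets higher (0.591%) and 262 lower (1.35%) with cyclosporine plus peptide, for 93 higher (0.478%) and 22 lower (0.113%) with cyclosporine, and for 78 higher (0.401%) and 468 lower (2.40%) without treatment. The standard deviation of the differences over probe sets was 0.37, 0.23 and 0.41 in the same order. Each pair is 1 array against 1 array, so these counts have no test. Across probe sets, which are not independent replicates, Pearson's r between the differences of 2 pairs was -0.045 for cyclosporine plus peptide with cyclosporine, 0.14 for cyclosporine plus peptide with untreated and -0.0059 for cyclosporine with untreated.

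Most genes of cell division were higher on day 3 in every treatment. For each gene the smallest of its 3 pair differences was taken, and the 10 genes where it was largest were Asf1b, Plk1, Sapcd2, Pttg1, Pclaf, Tnfrsf17, Cdca5l1, Tyms, Cdkn3 and Spc25. Each of the 10 had an adjusted p of 0.178 in limma, and for each the 3 arrays of day 3 lay above the 3 arrays of day 1. Prok1, a secreted prokineticin, and Aunip, a partner of Aurora kinase A, came next, with smallest differences of 0.64 and 0.62, against 0.64 for Spc25 at the end of the 10. The promoters of 4 of these genes are shown because they carry both elements named above, and that of Tyms because it carries an E2F-type site. Each sequence is the RefSeq window of the GRCr8 build from 250 bases before to 50 bases after the start of the gene, written 5' to 3' on the gene's strand, with CCAAT and TTTGAA (TTTGGCGC in Tyms) in capitals on either strand, so that ATTGG and TTCAAA mark the opposite strand.
Plk1 (chr1:186147408-186147707, plus strand): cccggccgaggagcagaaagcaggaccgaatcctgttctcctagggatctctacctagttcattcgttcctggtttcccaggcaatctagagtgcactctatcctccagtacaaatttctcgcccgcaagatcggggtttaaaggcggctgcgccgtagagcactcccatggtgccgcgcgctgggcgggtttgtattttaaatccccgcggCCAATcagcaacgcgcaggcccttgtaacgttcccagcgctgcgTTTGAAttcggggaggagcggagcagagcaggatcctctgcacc
Pttg1 (chr10:28406277-28406576, minus strand): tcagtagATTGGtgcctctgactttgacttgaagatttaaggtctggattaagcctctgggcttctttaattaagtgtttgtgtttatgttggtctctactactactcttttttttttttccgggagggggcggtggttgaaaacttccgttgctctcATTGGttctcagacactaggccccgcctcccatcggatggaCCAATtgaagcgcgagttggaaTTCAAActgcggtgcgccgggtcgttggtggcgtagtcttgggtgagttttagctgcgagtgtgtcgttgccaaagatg
Spc25 (chr3:74396669-74396968, minus strand): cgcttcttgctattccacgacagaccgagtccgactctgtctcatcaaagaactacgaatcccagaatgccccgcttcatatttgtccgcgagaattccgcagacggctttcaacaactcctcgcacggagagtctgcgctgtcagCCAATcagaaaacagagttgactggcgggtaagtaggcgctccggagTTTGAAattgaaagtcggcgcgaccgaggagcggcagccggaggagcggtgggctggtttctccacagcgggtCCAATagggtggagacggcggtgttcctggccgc
Asf1b (chr19:41100303-41100602, minus strand): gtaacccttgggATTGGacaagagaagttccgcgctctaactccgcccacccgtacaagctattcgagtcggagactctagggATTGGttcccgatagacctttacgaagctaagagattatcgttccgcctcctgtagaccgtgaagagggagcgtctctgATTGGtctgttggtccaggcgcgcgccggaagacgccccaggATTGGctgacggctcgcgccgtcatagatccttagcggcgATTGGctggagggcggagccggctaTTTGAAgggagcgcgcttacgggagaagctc
Tyms (chr9:120776034-120776333, minus strand): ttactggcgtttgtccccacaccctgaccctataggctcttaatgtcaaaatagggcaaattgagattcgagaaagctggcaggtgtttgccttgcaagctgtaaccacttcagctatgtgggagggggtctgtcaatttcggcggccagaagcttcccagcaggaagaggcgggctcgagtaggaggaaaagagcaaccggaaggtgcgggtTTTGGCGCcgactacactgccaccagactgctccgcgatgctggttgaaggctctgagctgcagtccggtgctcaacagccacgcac

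In Plk1 the CCAAT box began 38 bases before the start and the TTTGAA at base 7 after it. In Spc25 a CCAAT box began 104 bases and the TTTGAA 57 bases before the start. Asf1b held 5 CCAAT boxes, all on the opposite strand, and a TTTGAA at base 20 after the start. In Tyms the TTTGGCGC began 37 bases before the start. Over the lists, TTTGAA on either strand was found in 18 of 26 mitosis promoters (69.2%) and in 1 of 25 DNA replication promoters (4%), against 18.1% of all 27457 promoters of the same length and 11.5% of the 8775 promoters of genes tested in T cells. CCAAT was found in 18 of the 26 mitosis promoters (69.2%) and in 15 of the 25 replication promoters (60%), against 37.7% of all and 38.4% of those of tested genes. TTTGGCGC or TTTCCCGC was found in 0 of 26 mitosis promoters and in 10 of 25 replication promoters (40%), against 1.53% of all and 3.03% of those of tested genes. The 10 genes above held TTTGAA in 6 promoters and CCAAT in 7, and the 10 genes that were lowest on day 3, listed further on, held TTTGAA in 0 of 9 and CCAAT in 5 of 9 promoters. These are matches of letters in a window, with no test.

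Plk1, the kinase that drives entry into and passage through mitosis, read 588, 510 and 761 on day 3 in cyclosporine plus peptide, cyclosporine and untreated T cells, and 355, 214 and 309 on day 1. Values of the 3 treatments are listed in this order from here on. Every day 3 array lay above every day 1 array, and the difference was 1.05 ± 0.13 (SE of the fit, 3 pairs). Pttg1, securin, which inhibits the protease separase until anaphase, read 1115, 894 and 1261 on day 3 and 636, 528 and 769 on day 1, a difference of 0.75 ± 0.11. Its 3 pair differences were nearly equal, at 0.79, 0.74 and 0.70. Spc25, a kinetochore subunit of the Ndc80 complex, read 597, 499 and 634 on day 3 and 346, 314 and 339 on day 1. Cdkn3, a phosphatase that acts on cyclin-dependent kinases, read 1345, 1178 and 1491 on day 3 and 851, 509 and 810 on day 1, a difference of 0.90 ± 0.11. The days did not overlap for any of these 4 genes. The pair with the largest difference was cyclosporine for Cdkn3 (1.19) and untreated for Plk1 (1.26).

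Asf1b, a chaperone that passes histones H3 and H4 to new chromatin, read 554, 462 and 589 on day 3 and 296, 213 and 346 on day 1, a difference of 0.89 ± 0.11. Pclaf, a factor bound to the replication clamp, read 1758, 1574 and 2295 on day 3 and 1080, 753 and 1403 on day 1. Tyms, thymidylate synthase, read 244, 216 and 314 on day 3 and 147, 95.4 and 182 on day 1, a difference of 0.82 ± 0.13. In all 3 genes the cyclosporine array was the lowest of its day and the untreated array the highest, on day 3 as on day 1. Sapcd2 and Cdca5l1 differed by 0.93 ± 0.16 and 0.74 ± 0.090. On day 7 each of these 9 genes read above its own day 1 array in every treatment: Plk1 read 635, 550 and 689, Asf1b 612, 471 and 565, and Tyms 339, 230 and 341.

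**Figure D2:**
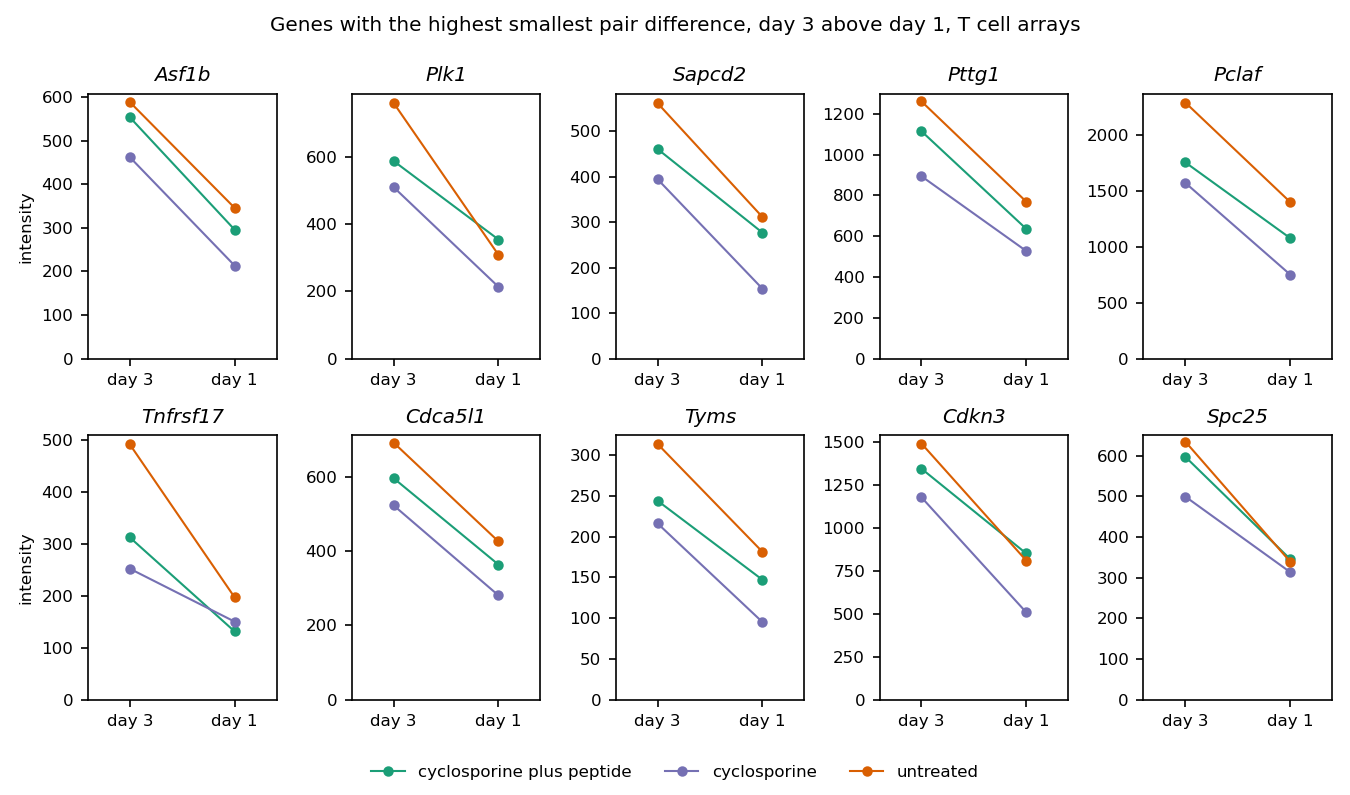
Intensity (y axis, from 0) of the 10 genes ranked highest by the smallest of their 3 pair differences, in the T cell arrays of day 3 and day 1 (x axis), with 1 line per treatment and 1 array per point. For all 10 genes the 3 points of day 3 lie above the 3 points of day 1, for example 510 to 761 against 214 to 355 for Plk1.

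The mitosis list behaved alike over its members. Of 27 genes with a probe set 25 were tested, and 0 were called at an adjusted p below 0.05. All 25 were higher at an unadjusted p below 0.05, where 4.70% of all probe sets were, and 24 were higher in each treatment, against 14.8% of all. The 3 day 3 arrays lay above the 3 day 1 arrays for 23 of the 25, against 6.23% of all. The median difference was 0.69, beside 0.014 over all probe sets, and by pair it was 0.39 with cyclosporine plus peptide, 1.01 with cyclosporine and 0.79 without treatment. The summed intensity was 16314, 16050 and 22207 on day 3 and 12308, 8044 and 12655 on day 1, and it was 19266, 15667 and 21261 on day 7. Among the brightest members, Mki67, the Ki-67 antigen of cycling cells, read 888, 972 and 1441 on day 3 and 755, 484 and 939 on day 1. The groups overlapped for Mki67, since the lowest day 3 array (888) lay below the untreated day 1 array (939). Ube2c, the ubiquitin-conjugating enzyme of the anaphase-promoting complex, differed by 0.77 ± 0.12, the kinase Cdk1 by 0.81 ± 0.12 and the topoisomerase Top2a by 0.65 ± 0.13.

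DNA replication genes differed less. All 26 with a probe set were tested, 20 were higher and 0 lower at an unadjusted p below 0.05 (4.70% and 3.60% of all), and 15 did not overlap between the days (6.23% of all). The median difference was 0.30, with 0.13, 0.41 and 0.38 in the cyclosporine plus peptide, cyclosporine and untreated pairs. Of the 26, 19 were higher in all 3 treatments (14.8% of all), while 7 were lower on day 3 in the cyclosporine plus peptide pair. Pcna, the sliding clamp of DNA polymerases, read 6619, 6401 and 7041 on day 3 and 5496, 5194 and 6138 on day 1, a difference of 0.26 ± 0.060 in which the days did not overlap. Dut, which clears dUTP, differed by 0.29 ± 0.075, and the helicase subunit Mcm7 by 0.21 ± 0.072. A second probe set of Dut ran the other way, at -0.22. Rfc5, a subunit of the clamp loader, differed by 0.13 ± 0.064, the least of the 4 brightest members.

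Plasma cell genes were also higher on day 3 in each pair, with 1 exception among 9. Tnfrsf17, the BCMA receptor that keeps plasma cells alive, read 312, 252 and 492 on day 3 and 131, 150 and 197 on day 1, a difference of 1.03 ± 0.18, and 148, 142 and 149 on day 7. Its second probe set differed by 1.42. Jchain, the joining chain of secreted IgA and IgM, read 4957, 4980 and 9729 on day 3 and 3125, 2696 and 6802 on day 1, and 3750, 3048 and 3333 on day 7. For Jchain the untreated array was the highest of its day on both days, so the days overlapped although each pair was higher on day 3 (0.66, 0.88 and 0.52). Mzb1, a chaperone for immunoglobulin assembly, read 2357, 1901 and 5807 on day 3 and 1882, 1209 and 2890 on day 1, and 1317, 1104 and 1101 on day 7. Creld2, a secretory-pathway protein induced by endoplasmic reticulum stress, differed by 0.53 ± 0.24, and Xbp1, the transcription factor of secretory differentiation, by 0.18 ± 0.17.

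Of the 9 plasma cell and germinal centre genes, 8 were higher on day 3 in each treatment (14.8% of all probe sets were), 3 were higher at an unadjusted p below 0.05 (4.70%), and 0 passed the adjusted test. The count of 3 was 1 without the cyclosporine arrays, 1 with a filter on dim probe sets at the 60th percentile, 1 without the block for treatment, 5 without the untreated arrays and 6 with the arrays of days 1 and 3 alone. Their median difference was 0.53, with 0.32, 0.31 and 0.85 by pair. The summed intensity was 14379, 13632 and 28153 on day 3, 11311, 9690 and 19589 on day 1, and 11157, 10024 and 10552 on day 7, so the day 3 array was the highest of its treatment in all 3. The B cell sum, which is the list nearest to it in lineage, was lower on day 3 in each pair: 28073, 26402 and 21457 on day 3 and 33378, 27223 and 49089 on day 1. In the cyclosporine pair the B cell genes were divided, with 6 higher, 6 lower and a median of 0.017. Without the untreated arrays their median was -0.055. Of the unfolded protein response genes, which serve secretion among other tasks, 18 of 20 had a positive difference, against 10431 of the 19464 probe sets. This list is not separate from the plasma cell list, since Creld2, its largest difference (0.53), is in both. Of the 20, 11 were higher in all 3 treatments (14.8% of all), and 3 were higher and 1 lower at an unadjusted p below 0.05 (4.70% and 3.60% of all). Their median was 0.18.

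**Figure D3:**
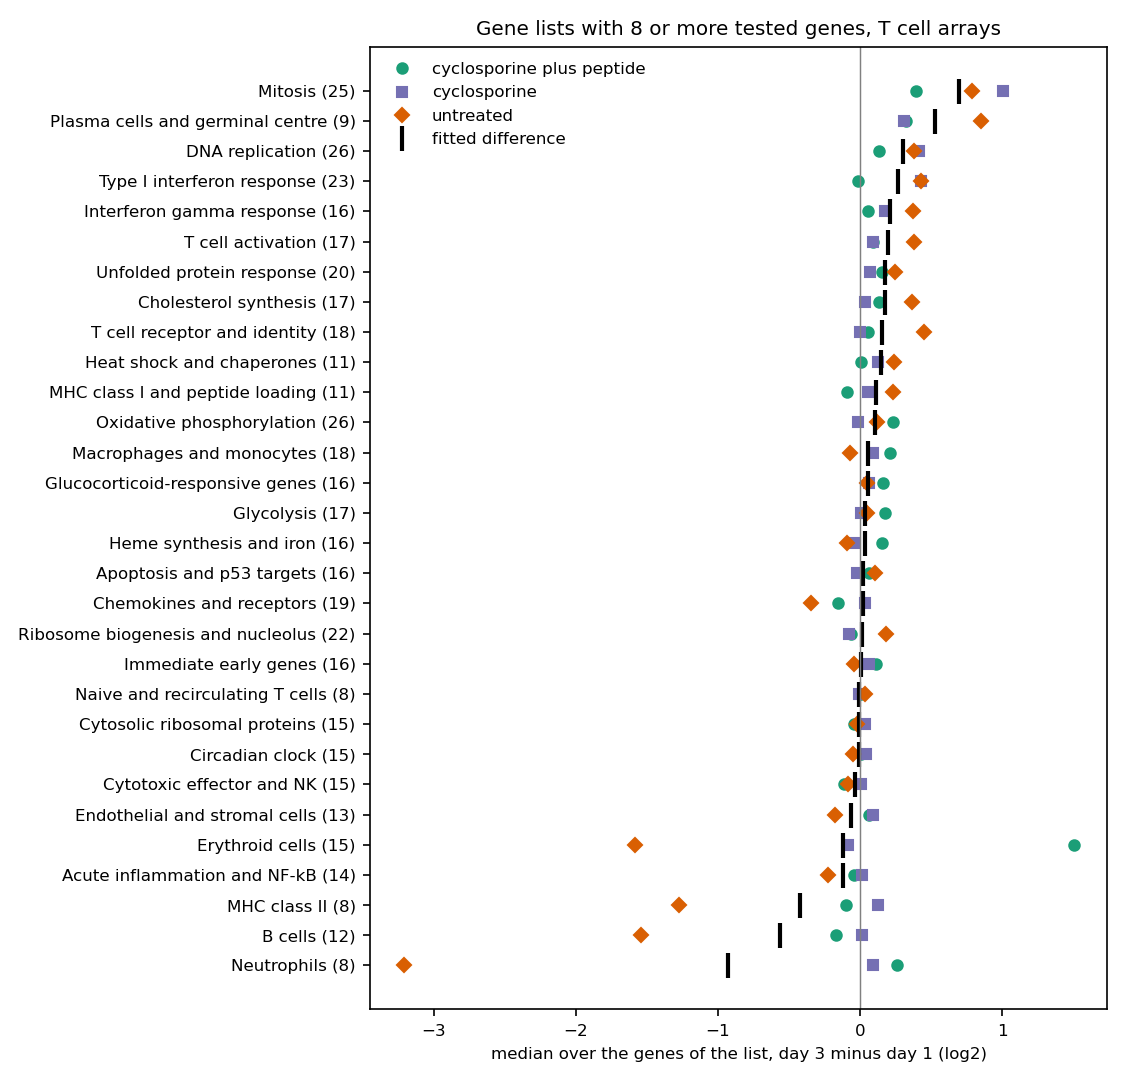
Median day 3 minus day 1 difference (x axis, log2) over the tested genes of each list with 8 or more tested genes (y axis, number of genes in parentheses); coloured points are the 3 treatment pairs and the black bar is the fitted difference. Mitosis genes lie right of 0 in each pair (0.39, 1.01 and 0.79), whereas neutrophil genes lie far left in the untreated pair alone (-3.21).

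The 10 genes at the other end of this ranking were LOC102555173, Chka, Cr2, Or13p4, Col20a1, LOC102556495, Lamp3, Cabp4, Sorbs2 and Inpp5f. None passed the test, with adjusted p from 0.192 (LOC102555173) to 0.550 (Cabp4) in limma. Chka, choline kinase alpha, which starts phosphatidylcholine synthesis, read 999, 995 and 556 on day 3 and 2285, 1561 and 1678 on day 1, a difference of -1.13 ± 0.21. Cr2, complement receptor CD21 of mature B cells and follicular dendritic cells, read 1723, 1895 and 1032 on day 3 and 3606, 2950 and 4029 on day 1, a difference of -1.21 ± 0.28. Its 4 other probe sets differed by -1.06 to -0.85. The days did not overlap for either gene, and the untreated pair had the largest difference in both (-1.57 and -1.95).

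LOC102555173, an uncharacterised locus, read 253, 307 and 203 on day 3 and 619, 493 and 738 on day 1, a difference of -1.23 ± 0.22. Inpp5f, a phosphoinositide phosphatase, read 1100, 1089 and 923 on day 3 and 1703, 1473 and 1764 on day 1, a difference of -0.66 ± 0.12. Lamp3, a lysosomal membrane protein of mature dendritic cells, read 219, 192 and 107 on day 3 and 323, 300 and 338 on day 1. LOC102556495 differed by -0.96 ± 0.23, the collagen gene Col20a1 by -0.75 ± 0.16, the olfactory receptor gene Or13p4 by -0.67 ± 0.15, and the adaptor gene Sorbs2 by -0.61 ± 0.17. Or13p4 read 120, 124 and 125 on day 3 and 215, 204 and 197 on day 1. Sorbs2 read 116, 91.6 and 130 on day 3 and 166, 144 and 235 on day 1. Without the untreated arrays, Or13p4 and Sorbs2 did not pass the filter on dim probe sets and were not tested. The calcium-binding gene Cabp4 differed by -0.76 ± 0.26, and it was the single gene of the 10 whose days overlapped, since its cyclosporine plus peptide array of day 3 (316) lay above the cyclosporine array of day 1 (297). On day 7 Chka read 599, 805 and 658 and Cr2 749, 1252 and 1302, below day 3 in both treated groups and above it in the untreated group, and Lamp3 read 91.3, 116 and 115 with the same order. Just outside the 10 lay Gpcpd1, a phosphodiesterase of glycerophosphocholine, at -0.48 ± 0.080 (adjusted p = 0.178 in limma), and Zfp385a at -0.69 ± 0.14, where the smallest of the 3 differences was -0.41 in both, against -0.43 for Inpp5f. A second probe set of Gpcpd1 differed less, by -0.14.

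**Figure D4:**
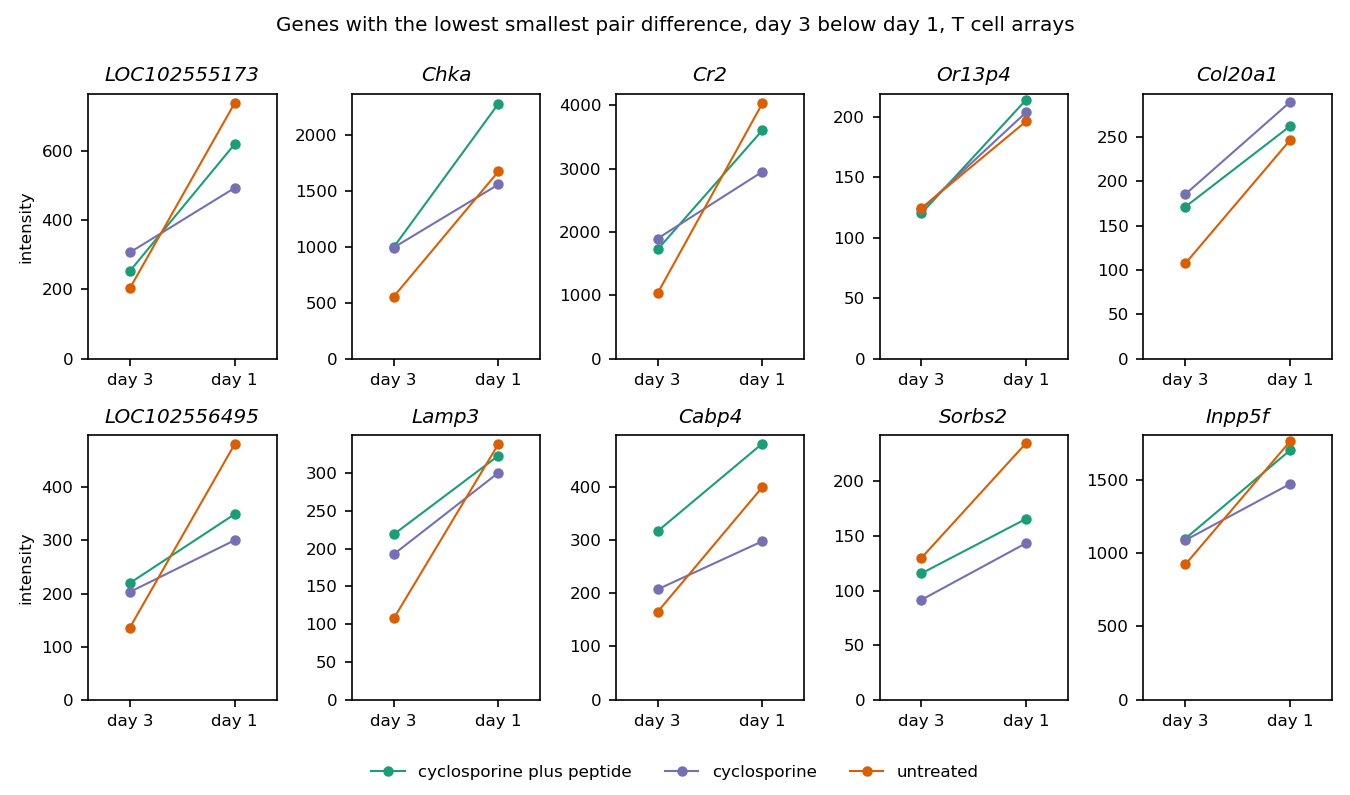
Intensity (y axis, from 0) of the 10 genes ranked lowest by the smallest of their 3 pair differences, in the T cell arrays of day 3 and day 1 (x axis), with 1 line per treatment and 1 array per point. For Chka the 3 points of day 3 (556 to 999) lie below the 3 points of day 1 (1561 to 2285), and Cabp4 is the single gene whose days overlap.

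Genes of the T cell itself differed little. Of 18 receptor and identity genes, 0 were higher or lower at an unadjusted p below 0.05, and their median difference was 0.15, with 0.053, -0.0032 and 0.45 in the cyclosporine plus peptide, cyclosporine and untreated pairs. Lck, the kinase that starts receptor signalling, read 14365, 14400 and 14136 on day 3 and 15334, 14065 and 12108 on day 1. Cd3g, Cd3e and Cd247, the signalling chains of the receptor, differed by 0.10 ± 0.068, 0.073 ± 0.062 and 0.15 ± 0.082. In each of these 4 genes the untreated day 1 array was the lowest of the 6, and it was also the array with the highest neutrophil and B cell sums, whose part in the difference was not tested. Naive and recirculating T cell genes had a median of -0.0078, with 0 of 8 at an unadjusted p below 0.05.

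Activation genes were slightly higher. Of 17 tested, 4 were higher and 0 lower at an unadjusted p below 0.05 (4.70% and 3.60% of all), with a median of 0.20 and pair medians of 0.093, 0.091 and 0.38. Cd69, an early activation marker that also holds T cells in lymphoid tissue, read 3981, 4023 and 4517 on day 3 and 3592, 3518 and 3042 on day 1, a difference of 0.30 ± 0.10 in which the days did not overlap. Il2ra, the high-affinity chain of the interleukin 2 receptor, read 511, 569 and 599 on day 3 and 426, 505 and 403 on day 1, a difference of 0.33 ± 0.11. Regulatory T cell genes numbered 4 tested, with 1 higher at that level (4.70% of all). Of 15 cytotoxic and natural killer genes, 1 was higher at that level (4.70% of all), and the median was -0.033. Ccl5, a chemokine of effector T cells, read 6379, 6667 and 4725 on day 3 and 7113, 7323 and 6715 on day 1, a difference of -0.27 ± 0.12. On day 7 Ccl5 was above both days, at 8134, 9617 and 10064.

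Tsc22d3, the glucocorticoid-induced leucine zipper protein GILZ, read 3578, 3875 and 3719 on day 3 and 2615, 3184 and 2362 on day 1. The days did not overlap, and the difference was 0.46 ± 0.079 with an adjusted p of 0.178 in limma. On day 7 Tsc22d3 was higher again, at 5211, 6034 and 5430. The 16 glucocorticoid-responsive genes as a group had a median of 0.059, with 2 higher and 0 lower at an unadjusted p below 0.05 (4.70% and 3.60% of all). Cxcr4, the chemokine receptor that retains cells in marrow and lymphoid tissue, among the brightest of the chemokine and receptor list, read 4468, 4151 and 5713 on day 3 and 4023, 3319 and 4179 on day 1. Its other probe sets differed by 0.33 and 0.27, and the first of them was lower on day 3 in the cyclosporine pair (-0.20).

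Type I interferon genes were higher on day 3 in the cyclosporine and untreated pairs, and near 0 difference with cyclosporine plus peptide. The 23 type I interferon genes had a median difference of 0.27, with -0.018 in the cyclosporine plus peptide pair, 0.43 in the cyclosporine pair and 0.43 in the untreated pair, and 4 were higher at an unadjusted p below 0.05 (4.70% of all). Whether the pairs differ could not be tested, since each holds 1 array per day. Bst2, tetherin, which holds budding virus on the cell, read 3050, 5148 and 6328 on day 3 and 3706, 4039 and 3245 on day 1. Mx1, a dynamin-like antiviral GTPase, read 4648, 6067 and 6023 on day 3 and 5419, 5327 and 4116 on day 1. Both were lower on day 3 in the cyclosporine plus peptide pair and higher in the other 2 pairs. Irf7, the amplifier of the response, was higher in each pair (0.16, 0.53 and 0.31), and Ifi27 differed by 0.22 ± 0.066. The 16 interferon gamma genes had a median of 0.21, 6 of them higher at an unadjusted p below 0.05 (4.70% of all), among them the immunoproteasome subunit Psmb9 at 0.21 ± 0.070 and the transcription factor Irf1 at 0.33 ± 0.10.

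Transcripts of B cells and neutrophils were lower on day 3 mainly in the untreated pair, whose day 1 array stood apart. B cell genes had a median of -0.57, but -0.17, 0.017 and -1.54 in the cyclosporine plus peptide, cyclosporine and untreated pairs. Ms4a1, the B cell surface protein CD20, read 5035, 4582 and 3155 on day 3 and 5855, 4197 and 9721 on day 1. Cd79b, a signalling chain of the B cell receptor, read 3585, 3062 and 2118 on day 3 and 3586, 2843 and 7138 on day 1. Cd22, an inhibitory B cell receptor, was lower in each pair (-0.71, -0.30 and -1.25), and Cd37, a tetraspanin, differed by -0.11 ± 0.079. MHC class II genes had a median of -0.42 and pair medians of -0.096, 0.13 and -1.27. Cd74, the invariant chain, read 11824, 11521 and 9474 on day 3 and 12325, 10364 and 15020 on day 1, and RT1-Da, a class II chain, read 6256 on day 3 and 12646 on day 1 in untreated T cells. Neutrophil genes had a median of -0.93, with 0.26, 0.094 and -3.21 by pair. Of the 8 tested, 4 passed the filter on dim probe sets when the untreated arrays were left out.

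Erythroid genes ran in opposite directions. Their median difference was -0.12, made of 1.5 in the cyclosporine plus peptide pair, -0.082 in the cyclosporine pair and -1.58 in the untreated pair. Alas2 read 5211, 1365 and 1328 on day 3 and 387, 2264 and 9423 on day 1. Hbb, beta globin, read 14691, 14318 and 13577 on day 3 and 7107, 15473 and 14063 on day 1, so the cyclosporine plus peptide array of day 1 was the lowest of the 6. Bpgm, the red cell enzyme that makes the haemoglobin ligand bisphosphoglycerate, differed by 1.74, -0.50 and -2.38, and carbonic anhydrase Car2 by 1.90, -0.27 and -2.11. No erythroid gene was higher or lower at an unadjusted p below 0.05, and the 17 genes summed to 32452, 21199 and 20446 on day 3 and 11594, 24106 and 43854 on day 1.

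Cholesterol synthesis, heat shock and oxidative phosphorylation genes had small, mostly positive differences. Medians of the glycolysis, ribosome, circadian clock, immediate early and apoptosis lists lay between -0.011 and 0.037, beside 0.014 over all probe sets. The 26 oxidative phosphorylation genes all had a positive fitted difference, against 10431 of the 19464 probe sets, and 7 did not overlap between the days (6.23% of all). Their median was 0.10, but by pair the medians were 0.23, -0.016 and 0.12, and 1 gene was higher at an unadjusted p below 0.05 (4.70% of all). Of 17 cholesterol synthesis genes, 4 were higher and 0 lower at that level (4.70% and 3.60% of all), with a median of 0.17. Of the 17, 10 were higher in all 3 treatments (14.8% of all), and 7 did not overlap between the days (6.23% of all). Fdps, farnesyl diphosphate synthase, read 2726, 2497 and 3109 on day 3 and 2497, 2474 and 1964 on day 1. All 11 heat shock and chaperone genes had a positive fitted difference, 2 of them at an unadjusted p below 0.05 (4.70% of all). Their median was 0.15, and 3 did not overlap between the days (6.23% of all). Of the 11, 5 were higher in all 3 treatments (14.8% of all). In the cyclosporine plus peptide pair 6 were higher and 5 lower, with a median of 0.0066. Medians were 0.037 for 17 glycolysis genes, 0.017 for 22 ribosome biogenesis genes, -0.010 for 15 cytosolic ribosomal protein genes, -0.011 for 15 circadian clock genes, 0.0062 for 16 immediate early genes and 0.021 for 16 apoptosis and p53 genes.

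Without the untreated arrays, cell division genes had similar differences, while those of B cells, neutrophils and erythroid cells moved. Limma on the 6 remaining T cell arrays tested 18907 probe sets and called 0 higher (0%) and 0 lower (0%), with a lowest adjusted p of 0.326 and 2 residual degrees of freedom. At an unadjusted p below 0.05 it counted 421 higher (2.23%) and 328 lower (1.73%). Mitosis genes were then higher in 24 of 25 at that level, against 2.23% of all, with a median of 0.67, and DNA replication genes in 11. Plasma cell genes had a median of 0.34, with 5 of 9 higher at an unadjusted p below 0.05. Plk1 differed by 0.95 ± 0.16, Asf1b by 0.96 ± 0.13, Jchain by 0.77 ± 0.10 and Mzb1 by 0.48 ± 0.12. Chka differed by -0.91 ± 0.21 and Cr2 by -0.85 ± 0.22. In contrast, the B cell median was -0.055, the MHC class II median 0.012, the neutrophil median 0.16, the erythroid median 0.62 and the T cell identity median 0.011. Medians in this paragraph are over the genes tested with all 9 T cell arrays. Of the 8 neutrophil genes among them, 4 passed the filter on dim probe sets without the untreated arrays, so the neutrophil median partly rests on dim values. S100a9 differed by 0.43 and Lck by -0.030, each with the opposite sign to the value with all arrays. The type I interferon median was 0.22 and the activation median 0.098. Counts higher at an unadjusted p below 0.05 were then 2 of 23 for type I interferon, 1 of 15 for interferon gamma, 1 of 17 for activation, 1 of 17 for cholesterol synthesis and 0 of 10 for heat shock genes, against 2.23% of all.

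The day 3 minus day 1 difference was also compared with that of the hearts, and here probe sets passed the test. In limma on all 18 arrays, the day 3 minus day 1 difference was higher in T cells than in hearts for 937 of 22327 probe sets (4.20%) and lower for 1030 (4.61%) at an adjusted p below 0.05, 1967 in all. This count rests on each treatment: without the untreated, the cyclosporine or the cyclosporine plus peptide arrays it was 2 and 20, 157 and 270, and 8 and 31. With each array centred on its median it was 1589 higher and 802 lower. Of the 16 genes with the largest tissue differences, 8 in each direction, 10 did not pass the filter on dim probe sets in T cells and were tested here with the heart arrays included: Tnn, Cthrc1, P4ha3, A2m, Ankrd2, Scn7a, Cox7a1, Sostdc1, Il1rl1 and Htr2b. For these 10 the T cell part of the difference is one between dim values, so that the tissue difference of Tnn was -5.75 with an offset of 1 and -3.95 with an offset of 64. Tnn, tenascin N, read 58.1, 56.8 and 60.7 on day 3 and 57.7, 48.7 and 38.4 on day 1 in T cells, and 1089, 1275 and 1841 on day 3 and 32.2, 20.7 and 11.5 on day 1 in hearts, a difference between tissues of -5.02 ± 0.39. Cthrc1, a matrix protein of healing tissue, differed by -3.19 ± 0.32, P4ha3, a collagen hydroxylase, by -3.0 ± 0.35, and the protease inhibitor A2m by -2.54 ± 0.26. Ankrd2, a stretch-responsive muscle protein, read 91.3, 42.8 and 96.4 on day 3 and 305, 215 and 365 on day 1 in hearts, and the difference between tissues was 1.93 ± 0.22. Scn7a, Cox7a1, Klhl40, Sostdc1, Prok1, Scn3b and Pnmt followed with 1.49 to 1.33 higher in T cells, and Il1rl1, Siglec5, Htr2b and Fcrl2 with -2.26 to -2.04.

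Mitosis genes had positive medians in both tissues, 0.69 in T cells and 1.32 in hearts. Of 26 tested, 0 were called higher and 2 lower in T cells than in hearts (4.20% and 4.61% of all). Plk1 read 500, 578 and 714 on day 3 and 150, 225 and 136 on day 1 in hearts, and its difference between tissues did not pass (-0.68 ± 0.22, limma adjusted p = 0.075). Cdkn3 (-1.33 ± 0.33, adjusted p = 0.030) and Pttg1 (-0.74 ± 0.18, adjusted p = 0.030) did, with the larger difference in hearts. MHC class II genes had a median of -0.42 in T cells and 1.10 in hearts, and 7 of 8 were called lower in T cells, where the background was 4.61%. Cd74 read 6891, 6385 and 7815 on day 3 and 3134, 3791 and 2754 on day 1 in hearts, a difference between tissues of -1.32 ± 0.20. Oxidative phosphorylation genes had a median of 0.10 in T cells and -0.23 in hearts, and 12 of 26 were called higher in T cells, where the background was 4.20%. For Tnfrsf17 and Chka, hearts differed by 0.058 and 0.39, and the tissues differed by 0.97 ± 0.22 (limma adjusted p = 0.023) and -1.52 ± 0.25 (adjusted p = 0.0083). Tnfrsf17 was dim in these hearts, at 67.7 to 83.2.

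**Figure D5:**
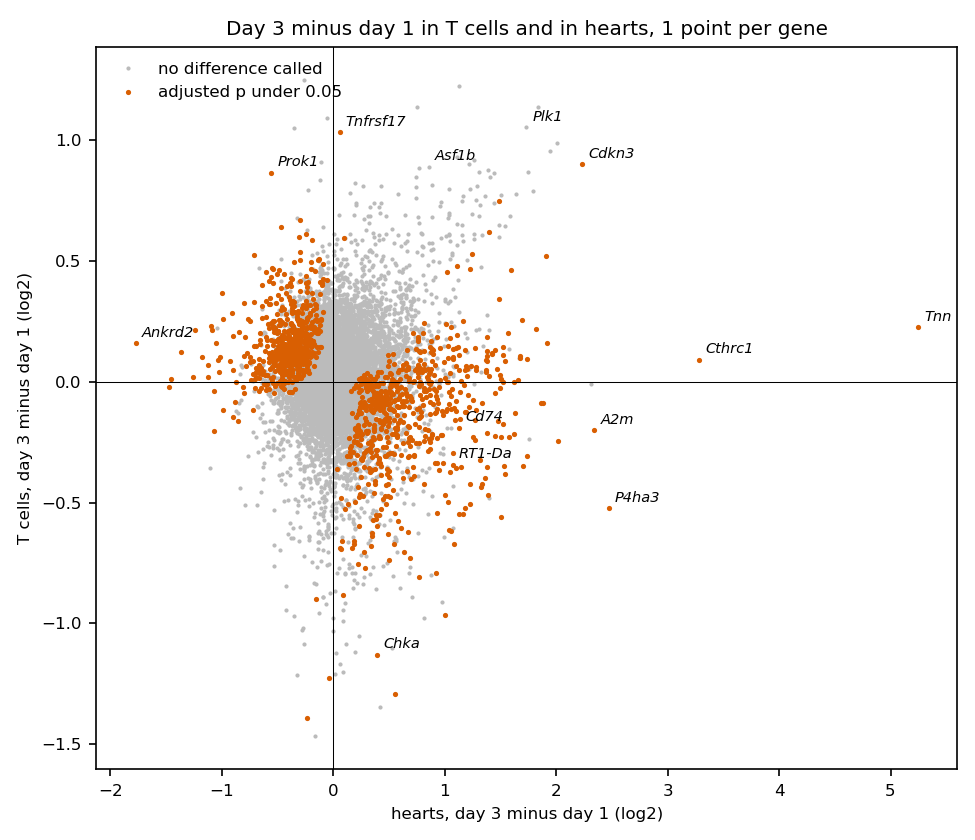
Day 3 minus day 1 difference (log2) in T cells (y axis) and in hearts (x axis), 1 point per gene, with genes whose tissue difference had a limma adjusted p under 0.05 in orange. Tnn lies far right, with 0.22 in T cells and 5.25 in hearts, while Plk1 (1.05 in T cells and 1.73 in hearts) is higher in both.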

How the data were processed

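RNA of 18 samples was measured on rat expression arrays with biotin-labelled cRNA, per the labels' protocols. The deposited table gives a linear intensity for each probe set and array, and the authors' way of summarising and scaling it is not given in the sources used here. A common scale had been set, as upper quartiles of 728 to 739 in the T cell arrays show, and 771 negative values over the 18 arrays show that a background had been taken off. Precision is limited by the number of arrays.

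Negative intensities were set to 0, and log2(intensity + 16) was used without further scaling. Of 31099 probe sets, 57 controls were left out. Of the other 31042, 20826 carry 1 gene symbol in the platform annotation, 436 several and 9780 none. By gene identifier 20758 of the 20826 matched the reference gene table, and 0 symbols changed. Where a gene had several probe sets, that of highest mean signal stands for it (14217 genes). Testing required a signal over the array's 40th percentile in 3 or more arrays. With limma 3.58.1 in R 4.3.3, treatment and day were fitted to the 9 T cell arrays (4 residual degrees of freedom), with a trend of the spread in signal and Benjamini-Hochberg adjustment over every tested probe set. The difference between tissues was an interaction over 18 arrays (8 residual degrees of freedom). The scripts were tested on simulated data. Each combination of tissue, treatment and day has 1 array, and animals are not identified per array, so p-values measure no more than how these samples vary, and that variation may be technical.

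The text names the 10 genes per direction whose smallest pair difference was largest, since none passed, up to 4 of the brightest members of a list, and the 8 largest tissue differences per direction. The 36 lists have 704 entries, 593 of them with a probe set. The genes, lists, tests and alternatives were chosen with earlier results of these data known. Alternatives changed the normalization, the offset, the filter on dim probe sets, the trend, the treatment block, the arrays and the probe set per gene.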

Additional observations from a re-analysis of the deposited data

Results flagged for a closer look

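The genes below stand out because their day 3 minus day 1 difference was not the same in T cells and in hearts, by the limma interaction test at an adjusted p below 0.05. Values are the T cell difference minus the heart difference on the log2 scale, over 3 pairs in each tissue. Among the genes described for their values in T cells or for their place in a list, the tissues differed for Pttg1 (-0.74), Tnfrsf17 (0.97), Cdkn3 (-1.33), LOC102555173 (-1.19), Chka (-1.52), Or13p4 (-0.86), Col20a1 (-0.98), Lamp3 (-0.97), Inpp5f (-0.74), Gpcpd1 (-0.98), Zfp385a (-0.75), Cd37 (-0.88), Cd74 (-1.32) and RT1-Da (-1.41). Some of these were dim in the hearts of days 1 and 3, so their heart part is one between dim values. Lamp3 read 30.2 to 38.2 there, Tnfrsf17 67.7 to 83.2, Col20a1 73.5 to 121 and LOC102555173 95.7 to 139. Among the genes chosen for their tissue difference, the value was positive for Prok1 (1.42), Ankrd2 (1.93), Scn7a (1.49), Cox7a1 (1.46), Klhl40 (1.45), Sostdc1 (1.45), Scn3b (1.37) and Pnmt (1.33). It was negative for Tnn (-5.02), Cthrc1 (-3.19), P4ha3 (-3.0), A2m (-2.54), Il1rl1 (-2.26), Siglec5 (-2.07), Htr2b (-2.05) and Fcrl2 (-2.04). In the T cell fit, 6 of these 16 genes (Prok1, Klhl40, Scn3b, Pnmt, Siglec5 and Fcrl2) passed the filter on dim probe sets, and the other 10 did not. No group held 4 or more samples of 1 tissue, treatment and day, so single samples were not tested as outliers.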

How the results depend on the processing

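In T cells, limma called 0 probe sets higher and 0 lower in each of the 14 alternatives, with a lowest adjusted p between 0.110 and 0.546 and between 749 and 2238 probe sets at an unadjusted p below 0.05. The 10 genes named as higher had a positive difference in 138 of 138 alternative values, between 0.66 and 1.23. They had been chosen for a positive difference in every treatment pair, so their sign was largely fixed by that choice. The count is therefore no separate check of the direction, and only the range of sizes is informative. The mitosis median lay between 0.61 without the cyclosporine arrays and 0.90 without the cyclosporine plus peptide arrays. Replication genes at an unadjusted p below 0.05 numbered 7 without the cyclosporine arrays and 11 without the untreated arrays, against 20.

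Genes of other blood cells changed sign with the arrays left out. Over the leave-one-out fits, differences ranged from -1.72 to 0.46 for S100a9, from -1.98 to 0.45 for S100a8, from -2.06 to 0.11 for Csf3r and from -1.62 to 0.19 for Mmp8. They ranged from -0.87 to 0.053 for Cd79b, from -0.36 to 0.046 for Cd74, from -1.77 to 1.49 for Alas2, from -1.44 to 0.62 for Bpgm, from -1.19 to 0.82 for Car2 and from -0.081 to 0.50 for Hbb. For Lck they ranged from -0.037 to 0.13 and for Mx1 from -0.017 to 0.37. The fit without the untreated day 1 array was chosen after the data were seen.

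Counts of differences over 1 by pair depended on the offset and filter. With an offset of 64, higher and lower counts were 71 and 118 (cyclosporine plus peptide), 46 and 12 (cyclosporine), and 31 higher (untreated). With no filter they were 252 and 410, 172 and 127, and 162 and 730. With a filter at the 60th percentile they were 62 and 96, 53 and 4, and 38 and 283. Fewer or more probe sets were counted by construction in the last 2 settings.

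The tissue difference was called for between 2 and 607 probe sets higher and between 20 and 801 lower when arrays were left out, for 221 and 392 with the arrays of days 1 and 3 alone, and for 1589 higher with each array centred on its median. The fits without a treatment or without day 7 have fewer samples, and the cause of the difference under centring was not tested. The labels give no replicate numbers, so days were paired by treatment alone, and without this block limma also called 0 probe sets. With 1 array for each combination, no spread between animals was measured, and dim probe sets near the filter limit what could be seen.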
